A study of Mus musculus with 24 samples.

Results

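Reactive astrocyte genes other than Gfap were followed in frontal cortex of GFAP-IL6 mice. The 8 genes were Vim, Nes, Cd44, Hspb1, Timp1, S1pr3, Aspg and Cd109, found by symbol among the 33000 genes of the deposited count table. Gfap itself and the acute-phase genes were left out of the list by the way it was drawn up, and Gfap serves below as the reference. The samples came from C57BL/6 mice aged 3 months, 3 wild-type (WT) and 3 homozygous for GFAP-IL6, a transgene that drives Il6 from the promoter of Gfap and so mainly in astrocytes. No other treatment or allele is given for either group. Each mouse gave 4 libraries by 3'Pool-seq, a method that sequences the 3' ends of polyadenylated transcripts, so there were 24 libraries in all. They formed 4 sets of 6, which differed in the cDNA put into tagmentation (2 ng or 1 ng) and in a letter, A or B, and the labels do not say what the letters stand for. The question was how far genes that are known from reactive astrocytes differ between the genotypes when Il6 is made in the brain.

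Astrocytes answer injury, infection and cytokines with a change of state in which the intermediate filament protein GFAP rises, and the genes followed here are known to rise with it in many forms of damage. Interleukin-6 acts through a receptor that shares the subunit gp130 with related cytokines, and passes its signal to the transcription factor STAT3. Vimentin (Vim) and nestin (Nes) are intermediate filament proteins that can assemble with GFAP. CD44 is a surface receptor for hyaluronan, S1PR3 a receptor for the lipid sphingosine 1-phosphate, HSPB1 a small heat shock protein that binds unfolding proteins and filaments, and TIMP1 a secreted inhibitor of metalloproteinases. Aspg encodes an asparaginase, and CD109 is a membrane-anchored protein that binds transforming growth factor beta.

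The libraries held 1524165 to 12256374 counted reads (median 4169387), and the 4 libraries of a mouse together 7852743 to 37582644. The genotype difference was tested on these sums, with the mouse as the replicate (n = 3 per genotype). Levels are given as CPM, the count scaled to the library size after TMM normalisation, and they were not divided by length, so they are compared between mice and not between genes. Among all 14621 genes tested the median log2 fold change was -0.0069 (GFAP-IL6 over WT). The labels were checked first on the transgene and on Gfap. Il6 stood at 0 to 0.26 CPM in the WT mice and at 1.58 to 4.23 CPM in the GFAP-IL6 mice. Gfap stood at 20.3, 23.6 and 16.0 CPM in WT mice 1, 2 and 3, and at 80.9, 101.9 and 146.4 CPM in GFAP-IL6 mice 1, 2 and 3, a log2 fold change of 2.44 (SE 0.186, adjusted p = 1.59e-06, edgeR quasi-likelihood test with Benjamini-Hochberg adjustment). The astrocyte markers Aqp4, Slc1a2, Slc1a3, Aldh1l1, Gja1, Gjb6, Aldoc, Sox9 and S100b were detected in every mouse, in sum at 3394 to 3496 CPM in WT and 3668 to 3853 CPM in GFAP-IL6. WT mouse 3 stood apart from the other mice by the choroid plexus gene Ttr, with 4038 CPM against 74.6 to 743 CPM in the other 5 mice, and the genotype differences without it are given below for the 7 genes tested.

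Of the 8 genes, Aspg was the one that rose by the criteria of a differentially expressed gene (DEG), which were an adjusted p under 0.05 and a log2 fold change above 1. Its level was 2.28 times as high in GFAP-IL6 as in WT. Hspb1 rose 1.83-fold and passed on the adjusted p alone. Vim was 1.56-fold higher in GFAP-IL6 without passing the test, Nes and S1pr3 lay close to the WT level, and Cd44, Timp1 and Cd109 were too sparsely counted to place well. Gfap rose 5.44-fold in the same mice. The 1 DEG among 7 tested genes compares with 1.2% of all tested genes that were DEGs higher in GFAP-IL6, and the 2 genes past the adjusted p alone with 1.74%. In 2 of the 7 tested genes, Aspg and Hspb1, every GFAP-IL6 mouse lay above every WT mouse, which held for 8.43% of all tested genes. The counts come from whole cortex, where more cells of a type and more RNA per cell cannot be told apart.

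**Figure D1:**
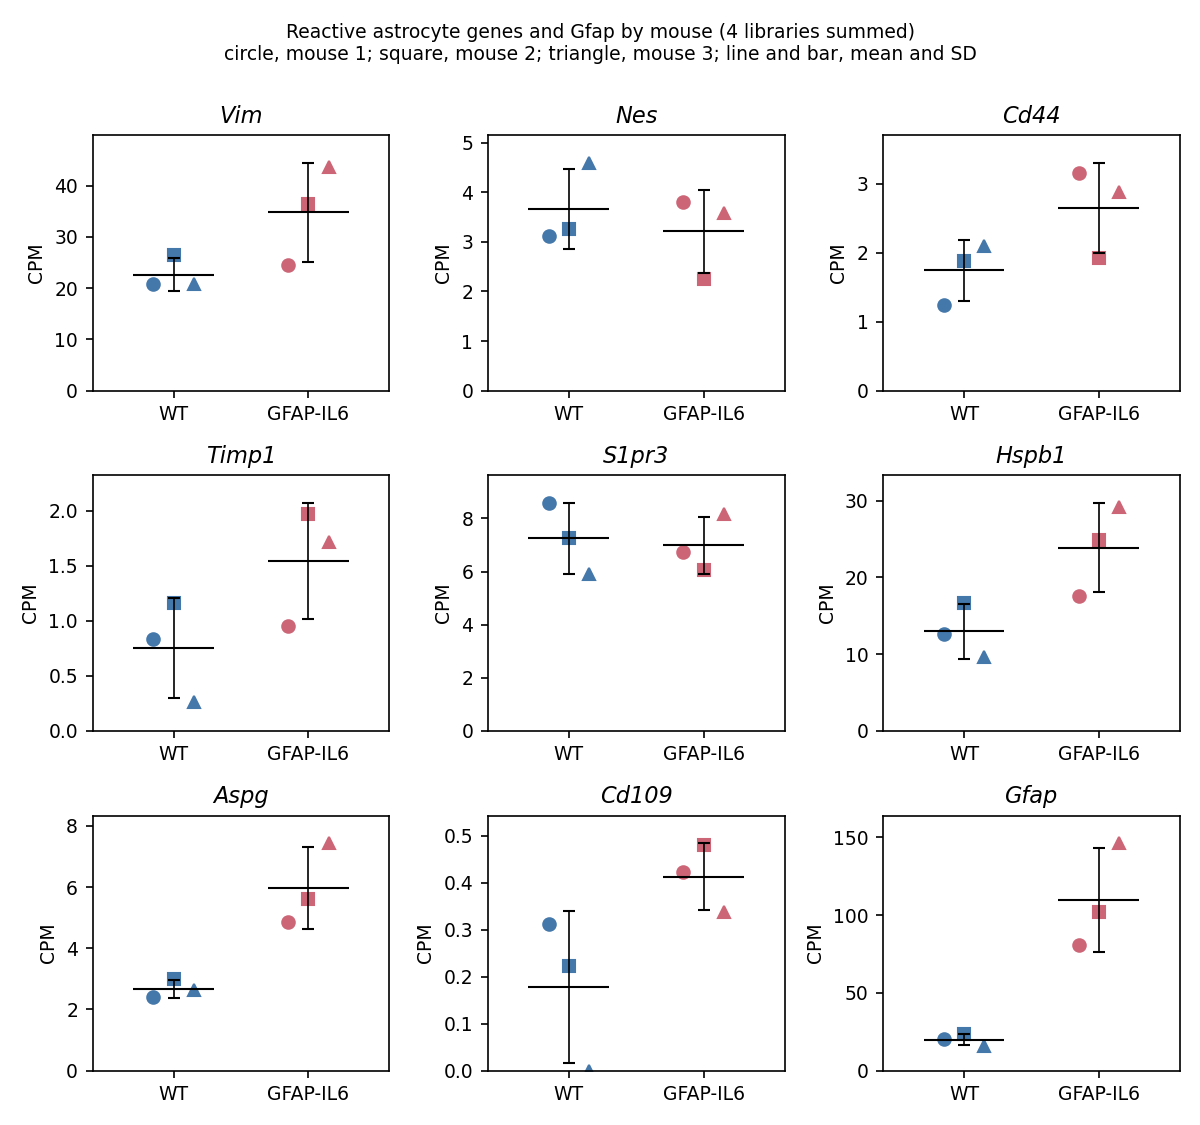
CPM of the 8 genes and of Gfap in each mouse, with the 4 libraries of a mouse summed. Points are mice, and the line and bar are the mean and SD of 3 mice. The genotypes are apart for Aspg (2.39 to 2.99 against 4.85 to 7.45 CPM), Hspb1, Cd109 and Gfap, and they overlap for Vim, Nes, Cd44, Timp1 and S1pr3.

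Aspg (chr12:112106679-112127559, plus strand, mm10) had 2.39, 2.99 and 2.62 CPM in WT mice 1, 2 and 3. In GFAP-IL6 mice 1, 2 and 3 it had 4.85, 5.61 and 7.45 CPM. The lowest GFAP-IL6 mouse thus lay well above the highest WT mouse. The means were 2.67 ± 0.302 CPM in WT and 5.97 ± 1.33 CPM in GFAP-IL6 (SD, n = 3 each), and the log2 fold change was 1.19 (SE 0.234, 95% interval 0.69 to 1.69, edgeR adjusted p = 0.0119). These levels rest on 120 counts in the WT mice together and 450 in the GFAP-IL6 mice. The call was lost without WT mouse 1 (log2 fold change 1.10, edgeR adjusted p = 0.0650) and without GFAP-IL6 mouse 3 (0.98, edgeR adjusted p = 0.1705), while without WT mouse 3 the log2 fold change was 1.19 and the adjusted p 0.0206. It was also lost when all mice were thinned to the same total (1.04, edgeR adjusted p = 0.0749).

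Hspb1 (chr5:135887919-135889563, plus strand) had 12.6, 16.7 and 9.58 CPM in WT mice 1, 2 and 3. The GFAP-IL6 mice had 17.6, 24.8 and 29.2 CPM in the same order. The gap between the groups was narrow, since WT mouse 2 and GFAP-IL6 mouse 1 were close to each other. The means were 12.9 ± 3.56 CPM and 23.9 ± 5.84 CPM (SD, n = 3 each), with a log2 fold change of 0.87 (SE 0.190, 95% interval 0.47 to 1.28, edgeR adjusted p = 0.0242). Leaving out WT mouse 1, WT mouse 3, GFAP-IL6 mouse 2 or GFAP-IL6 mouse 3 ended this call, with log2 fold changes of 0.83, 0.74, 0.86 and 0.70 and edgeR adjusted p of 0.0931, 0.0523, 0.0995 and 0.201.

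The promoters of Aspg and Hspb1, the 2 genes that rose, are shown with that of Gfap, the reference gene. A STAT motif was searched because STAT3 is the factor through which interleukin-6 is best known to act. Each window runs from 250 bases before to 50 after the gene start in the direction of transcription (RefSeq, GRCm38.p6). Capitals mark matches to a STAT motif (TTCNNNGAA) or to a heat shock element (GAANNTTC), each searched on both strands.
Gfap, chr11:102897151-102897450, minus strand: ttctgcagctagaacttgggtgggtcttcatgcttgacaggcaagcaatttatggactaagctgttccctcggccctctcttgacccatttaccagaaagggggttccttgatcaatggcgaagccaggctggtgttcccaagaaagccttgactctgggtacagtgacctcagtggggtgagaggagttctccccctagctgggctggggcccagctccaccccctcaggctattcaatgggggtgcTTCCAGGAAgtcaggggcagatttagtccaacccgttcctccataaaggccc
Aspg, chr12:112106433-112106732, plus strand: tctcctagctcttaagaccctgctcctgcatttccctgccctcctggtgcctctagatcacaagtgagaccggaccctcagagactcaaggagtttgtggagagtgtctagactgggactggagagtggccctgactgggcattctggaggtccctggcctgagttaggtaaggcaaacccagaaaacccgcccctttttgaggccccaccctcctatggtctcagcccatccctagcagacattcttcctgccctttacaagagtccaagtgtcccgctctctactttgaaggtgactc
Hspb1, chr5:135887669-135887968, plus strand: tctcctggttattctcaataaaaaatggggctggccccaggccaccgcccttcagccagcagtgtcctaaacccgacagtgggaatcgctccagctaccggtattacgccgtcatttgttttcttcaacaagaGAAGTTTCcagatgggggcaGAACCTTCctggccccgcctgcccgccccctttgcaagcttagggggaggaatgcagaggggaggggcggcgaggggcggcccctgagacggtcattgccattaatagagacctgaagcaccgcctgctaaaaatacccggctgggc
The Gfap window held 1 STAT match, TTCCAGGAA at chr11:102897194-102897202, which lies over the RefSeq start. GENCODE, used for the gene positions, places Gfap at chr11:102887336-102900912, so its start lies outside this window. The Vim window, chr2:13574061-13574360, likewise lies inside the GENCODE gene, which begins at 13573927. For Gfap and Vim the sequence before the GENCODE start was therefore not searched. This match also fits the stricter form TTCCNGGAA, found in 1.15% of the 32851 promoter windows of the table, against 8.30% for TTCNNNGAA. None of the 7 reactive astrocyte genes with a window in the table (all but Cd109) held TTCNNNGAA, and none of them nor Gfap held an AP-1 motif (TGANTCA, in 7.81% of windows). Among 7 genes such absences are too few to set against the shares of all windows. Sites outside the windows were not searched, and any bearing of the matches on the fold changes was not tested. The Hspb1 window held 2 heat shock elements, GAAGTTTC at chr5:135887802-135887809 and GAACCTTC at chr5:135887822-135887829, 117 and 97 bases before the gene start. This element, found in 7.86% of windows, was searched for after the values of Hspb1 had been seen.

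Vim (chr2:13573927-13582826, plus strand), the most deeply counted of the 8 genes, had 20.8, 26.4 and 20.7 CPM in WT mice 1, 2 and 3. In GFAP-IL6 mice 1, 2 and 3 it had 24.5, 36.4 and 43.6 CPM. GFAP-IL6 mouse 1 fell within the WT range and the other two lay above it. The means were 22.6 ± 3.25 CPM and 34.8 ± 9.64 CPM (SD, n = 3 each), and the log2 fold change was 0.64 (SE 0.167, 95% interval 0.283 to 0.995, edgeR adjusted p = 0.0864). Whether Vim passed depended on the test and on the count filter. DESeq2 gave an adjusted p of 0.0337, limma-voom over the 24 libraries 0.000447, and edgeR without the filter 1.32e-05. The limma fit treats the 4 libraries of a mouse almost as separate replicates, since its common correlation between them was 0.114, while Vim varied by 9.49% within a mouse and by 14.4% (WT) and 27.7% (GFAP-IL6) between mice. With 1 mouse left out the log2 fold change ranged from 0.44 without GFAP-IL6 mouse 3 (edgeR adjusted p = 0.602) to 0.81 without GFAP-IL6 mouse 1 (edgeR adjusted p = 0.0043), and the latter was the only such fit in which Vim passed. Without WT mouse 3 it was 0.60 (edgeR adjusted p = 0.170).

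Nes (chr3:87971078-87980451, plus strand), a filament gene known from neural precursors, had 3.12, 3.27 and 4.59 CPM in WT mice 1, 2 and 3. In the GFAP-IL6 mice it had 3.80, 2.25 and 3.58 CPM. The groups overlapped widely, with the highest value in a WT mouse and the lowest in a GFAP-IL6 mouse. The log2 fold change was -0.16 (SE 0.275, 95% interval -0.75 to 0.42, edgeR adjusted p = 0.936), an interval that leaves room for a moderate change either way. Without WT mouse 3 the log2 fold change was -0.0055.

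The filament genes were also set against Gfap within the same libraries. For each count of Vim there were 0.98, 0.89 and 0.77 counts of Gfap in WT mice 1, 2 and 3. In GFAP-IL6 mice 1, 2 and 3 there were 3.31, 2.80 and 3.36. This ratio does not depend on the normalisation, and it was 3.58 times as high in GFAP-IL6 (exact two-sided permutation test, p = 0.1, the smallest that 3 mice against 3 allow). Gfap per count of Hspb1 went from 1.57 ± 0.136 in WT to 4.57 ± 0.458 in GFAP-IL6, and per count of Aspg from 7.49 ± 1.24 to 18.2 ± 1.495 (SD, n = 3 mice each). Per count of Nes it went from 5.74 ± 1.98 to 35.8 ± 12.7, per count of S1pr3 from 2.77 ± 0.441 to 15.6 ± 3.16, and per count of Cd44 from 12.1 ± 4.34 to 43.2 ± 15.3. None of these 5 ratios overlapped between the genotypes, and the exact permutation test again gave its smallest p of 0.1 for each. Gfap is the numerator of every ratio and was by itself apart between the genotypes. The ratios, that of Vim included, therefore largely restate the rise of Gfap and are no separate result for each gene. The share of all genes whose ratio to Gfap is apart was not computed. Gfap per count of Timp1 did overlap, at 20.2 to 61 in WT and 51.8 to 85.5 in GFAP-IL6. A transcript, Gm26668, is annotated on the other strand over the last exon of Gfap.

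The receptors differed in depth, with 255 counts of Cd44 and 846 of S1pr3 over all mice. Cd44 (chr2:102811141-102901665, minus strand) had 1.25, 1.88 and 2.10 CPM in WT mice 1, 2 and 3, and 3.16, 1.92 and 2.88 CPM in GFAP-IL6 mice 1, 2 and 3. GFAP-IL6 mouse 2 lay within the WT range, and the log2 fold change of 0.63 did not pass the test (SE 0.327, 95% interval -0.07 to 1.33, edgeR adjusted p = 0.637). S1pr3 (chr13:51408639-51422797, plus strand) had 8.59, 7.26 and 5.91 CPM in the WT mice and 6.75, 6.04 and 8.17 CPM in the GFAP-IL6 mice, with log2 fold change -0.07 (SE 0.188, 95% interval -0.47 to 0.34, edgeR adjusted p = 0.969). Its interval lies below the log2 fold change of 1 set for a DEG. Without WT mouse 3 the log2 fold change was 0.75 for Cd44 and -0.16 for S1pr3, with no call for either (edgeR adjusted p = 0.534 and 0.863). Gm32834 is annotated on the other strand over its last exon.

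Timp1 (chrX:20870166-20874735, plus strand) had 0.83, 1.16 and 0.26 CPM in WT mice 1, 2 and 3. In the GFAP-IL6 mice it had 0.95, 1.97 and 1.71 CPM. GFAP-IL6 mouse 1 lay between WT mice 1 and 2. The value of WT mouse 3 rests on 2 counts, and all WT mice together gave 39 counts against 116 in GFAP-IL6. The log2 fold change of 0.95 came with a wide interval (SE 0.444, 95% interval 0.0006 to 1.90, edgeR adjusted p = 0.565), and it was 0.70 without WT mouse 3 (edgeR adjusted p = 0.684). Timp1 lies inside the span of Syn1, a gene of neuronal synapses on the other strand. Whether exons of Syn1 overlap those of Timp1 was not examined. Only reads from sequence shared by both genes would need strand to be told apart. Whether the counting used strand is not given in the sources used here.

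Cd109 (chr9:78615546-78716253, plus strand) was counted 6, 4 and 0 times in WT mice 1, 2 and 3, and 4, 10 and 13 times in GFAP-IL6 mice 1, 2 and 3. In CPM this was 0.31, 0.22 and 0 against 0.42, 0.48 and 0.34. The GFAP-IL6 mice lay above the WT mice, but by differences of a few counts, and the gene did not reach the count filter. Of the 24 libraries, 9 had no count of it and 21 had 3 or fewer. Without the filter its log2 fold change was 0.94 (edgeR adjusted p = 0.851), so a difference was not detectable at this depth.

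**Figure D2:**
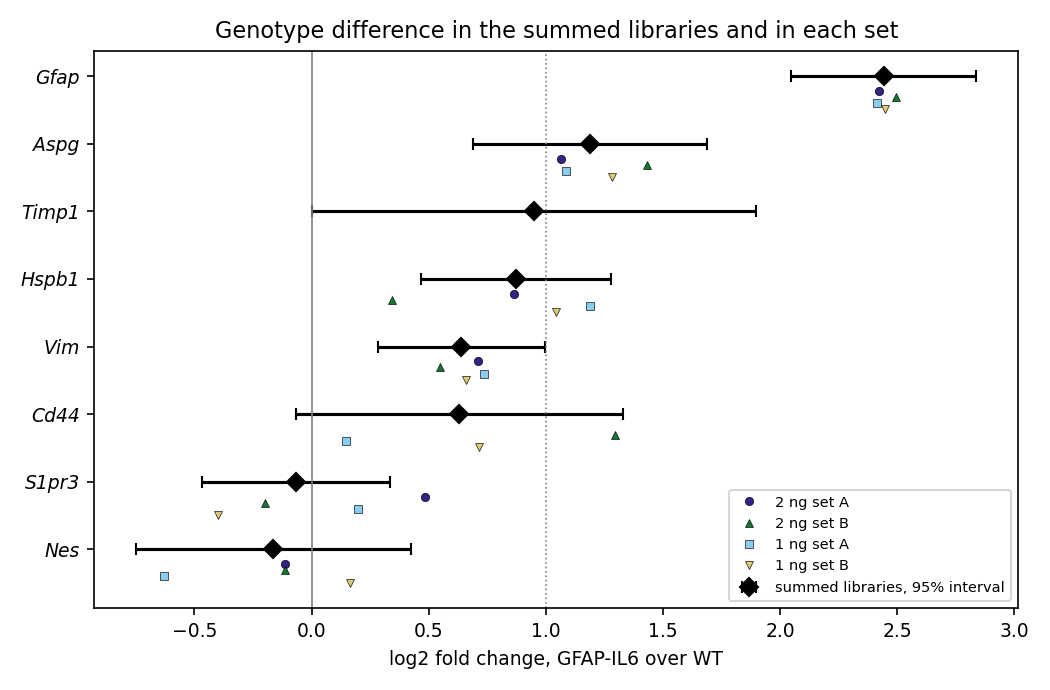
Log2 fold change (GFAP-IL6 over WT) of the 7 tested genes and of Gfap. Diamonds with 95% intervals are the summed libraries, and the dotted line marks the log2 fold change of 1. Small symbols are those of the 4 sets in which a gene reached the count filter, which were 3 for Cd44 and none for Timp1. Gfap stays between 2.42 and 2.50 in the sets, Aspg between 1.06 and 1.43, and Hspb1 spreads from 0.34 to 1.19.

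Each set by itself holds 1 library per mouse and is a technical repeat of the same 6 RNA samples, so the sets show how far the values depend on the library. No reactive astrocyte gene was a DEG in the 2 ng sets, where 0.681% (set A) and 0.736% (set B) of all tested genes were DEGs higher in GFAP-IL6. DESeq2 also called 0 of them in these sets, and 3 of them had an unadjusted p under 0.05 by edgeR in each 2 ng set, as did 925 of all 12190 tested genes in set A and 828 of 12233 in set B. In each 1 ng set Hspb1 was the 1 gene called of 6 tested, against a background of 0.758% (letter A) and 0.748% (letter B) of all tested genes. Aspg missed the adjusted p in all 4 sets (edgeR adjusted p = 0.138 to 0.417), although its log2 fold changes of 1.06 and 1.43 with 2 ng (A, B) and 1.09 and 1.28 with 1 ng (A, B) lay close to that of the sums. In each set its lowest GFAP-IL6 library was above its highest WT library. The groups were closest in 2 ng set B, at 3.61 against 3.13 CPM. These values rest on only 7 counts in GFAP-IL6 mouse 1 and 12 in WT mouse 2. The share of all genes apart in this way was not computed for single sets. Vim had log2 fold changes of 0.71, 0.55, 0.73 and 0.66 in the same order, with no call (edgeR adjusted p = 0.0741 to 0.298).

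Hspb1 passed the test in some sets and not in others. Its log2 fold change was 1.19 with 1 ng in A (edgeR adjusted p = 0.0027) and 1.04 with 1 ng in B (edgeR adjusted p = 0.0177), whereas the 2 ng libraries gave 0.87 in A (edgeR adjusted p = 0.176) and 0.34 in B (edgeR adjusted p = 0.886). In 2 ng set B the WT libraries reached 15.4 to 20.9 CPM and overlapped the GFAP-IL6 libraries at 13.4 to 30.2 CPM. In 1 ng set A the WT libraries held 7.41 to 15.9 CPM and the GFAP-IL6 libraries 25.1 to 29.9 CPM, without overlap. The genotype difference was smaller by 0.51 on the log2 scale with 2 ng than with 1 ng (interaction, log2 value -0.51, SE 0.175, unadjusted p = 0.0041 and adjusted p = 0.9998 by edgeR), which did not pass over all genes. No gene did, 0 of 14261 (0%) by edgeR and 0 by DESeq2, with 551 and 80 genes at an unadjusted p under 0.05. The call of Hspb1 in 1 ng set B ended without WT mouse 2, WT mouse 3, GFAP-IL6 mouse 2 or GFAP-IL6 mouse 3, and in 1 ng set A without GFAP-IL6 mouse 3.

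**Figure D3:**
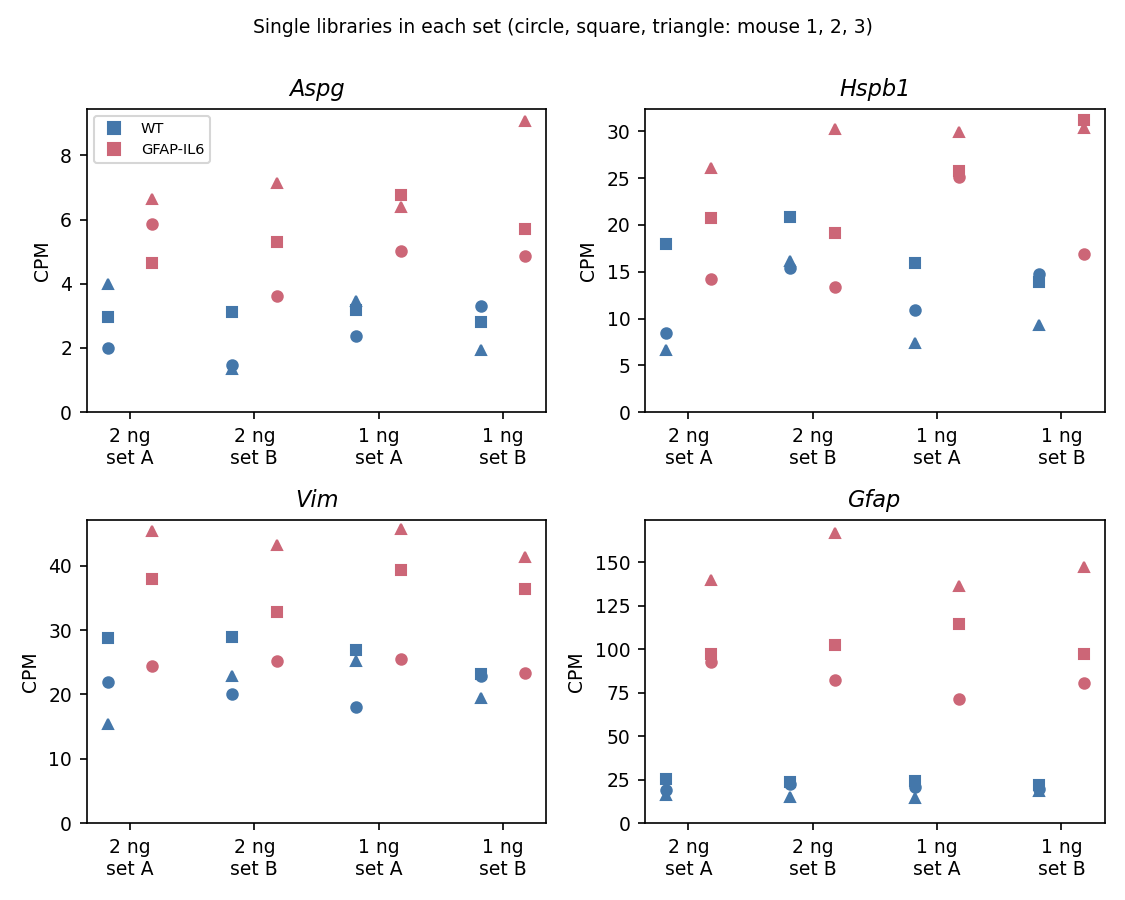
CPM of Aspg, Hspb1, Vim and Gfap in single libraries by set, scaled over the 24 libraries together. Each point is 1 library, blue for WT and red for GFAP-IL6. The Hspb1 libraries overlap in the 2 ng sets and are apart in the 1 ng sets, and the Aspg and Gfap libraries are apart in each set. The share of all genes that are apart was not computed for single sets.

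The remaining genes changed place from set to set. Cd44 had log2 fold changes of 1.30 in 2 ng set B and of 0.15 and 0.71 in the 1 ng sets A and B, and was too low to test in 2 ng set A. S1pr3 ran from -0.40 to 0.49 and was higher in GFAP-IL6 in 2 of 4 sets, and Nes ran from -0.63 to 0.16 and was higher in 1 of 4. Over the 4 libraries of a mouse the coefficient of variation averaged 8.62% for Gfap and 9.49% for Vim, but 24.6% for Hspb1, 58.8% for Cd44 and 101% for Timp1. Timp1, which varied most of these, had 3 or fewer counts in 12 of 24 libraries. It did not reach the count filter of the genotype test in any of the 4 sets.

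The amount of cDNA and the set letter were also compared within mice. Between 2 ng and 1 ng, 31.2% of all tested genes passed (either direction, mouse as a block, edgeR adjusted p), and between sets A and B 21.7%. None of the 7 tested reactive astrocyte genes did in either comparison. Of these, 2 had an unadjusted p under 0.05 between the amounts and 0 between the letters by edgeR, beside 5568 of all 14261 and 4521 of all 14486 tested genes, and DESeq2 called 0 in each. The largest difference between the amounts was that of Cd44, at log2 -0.52 (2 ng over 1 ng, SE 0.249, edgeR adjusted p = 0.101), and Hspb1 had -0.16 (SE 0.0808, edgeR adjusted p = 0.124). Vim differed by 0.0009 (95% interval -0.13 to 0.13) and Gfap by 0.04 (95% interval -0.05 to 0.12), both intervals lying below their genotype differences.

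A further 29 genes known from reactive astrocytes were examined as the surroundings of these 8. Of the 22 that could be tested, 8 rose on the adjusted p, 5 of them as DEGs, and none fell. Of all tested genes 1.74% rose on the adjusted p and 1.2% were DEGs higher in GFAP-IL6. The median log2 fold change of the 22 was 0.58, close to the 0.64 of the 7 tested genes of the main list, against -0.0069 over all genes. Both lists were drawn up with earlier results of these data known. Their counts and medians are therefore no independent comparison with all genes. Acute-phase genes, such as Lcn2, Cp and Serpina3n, were left out of the main list but not of the list of 29. The medians of the lists thus come from unlike choices of genes. The DEGs were Lcn2, the iron-sequestering lipocalin 2, at 3.67 (edgeR adjusted p = 0.000623), Osmr, the receptor subunit for oncostatin M, at 2.08 (0.000813), Cd14, a co-receptor for bacterial lipopolysaccharide, at 1.37 (0.00156), Gbp2, an interferon-induced GTPase, at 1.25 (0.0119), and Psmb8, a subunit of the immunoproteasome, at 1.11 (0.000211). Serpina3n, a serine protease inhibitor (0.98), Cp, the copper-binding ceruloplasmin (0.87), and H2-D1, a class I histocompatibility gene (0.63), passed on the adjusted p alone. Stat3 had a log2 fold change of 0.49 with an edgeR adjusted p of 0.0686. Aspg thus took a place between Gbp2 and Psmb8, and Hspb1 between Serpina3n and Cp. Several of these genes, among them Cd14, Psmb8 and H2-D1, are also expressed by microglia.

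**Figure D4:**
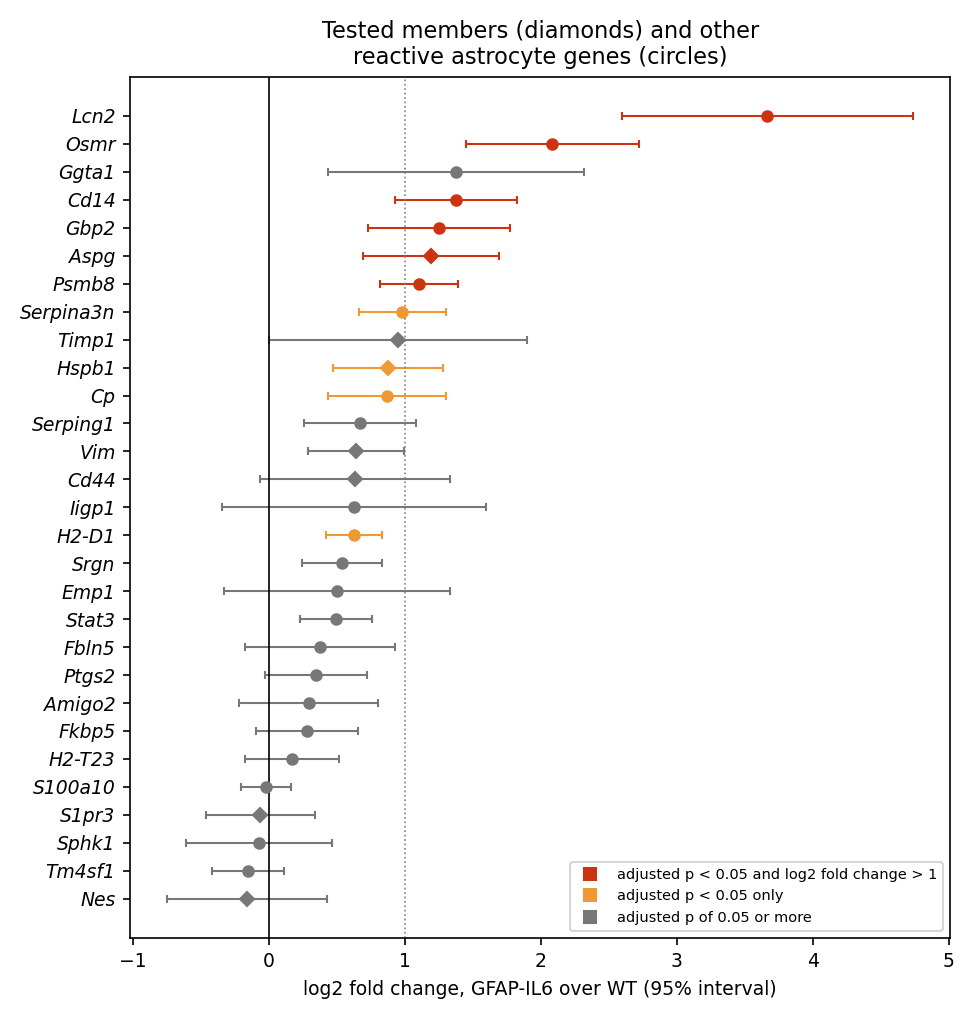
Log2 fold change with 95% interval (summed libraries, GFAP-IL6 over WT) of the 7 tested members, as diamonds, and of the 22 other tested reactive astrocyte genes, as circles. Lcn2 (3.67) and Osmr (2.08) lead, Aspg (1.19) and Hspb1 (0.87) lie in the upper part, and Nes (-0.16) is at the bottom.

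Genes of the same families and partners of these genes were also examined, beside the 1.74% of all tested genes that rose on the adjusted p. Of 9 intermediate filament and partner genes (Gfap, Synm, Des, Nefl, Nefm, Nefh, Ina, Plec and Prph), Gfap was the 1 that passed, and the median log2 fold change was 0.09. Synm, whose protein joins vimentin filaments, had 0.09 (95% interval -0.22 to 0.41). Of 7 tested genes for CD44 ligands, hyaluronan enzymes and membrane linkers, Msn rose, from 15.1 ± 3.40 to 25.4 ± 3.69 CPM (SD, n = 3 each, log2 fold change 0.74, edgeR adjusted p = 0.0211). Msn encodes moesin, which ties CD44 to the actin cytoskeleton. Spp1, the CD44 ligand osteopontin, had 0.60 (edgeR adjusted p = 0.252). None of the 5 tested small heat shock protein genes other than Hspb1 passed, and their median was 0.10. The small heat shock gene Cryab had 0.10 (95% interval -0.12 to 0.33). Among 8 tested TIMP and metalloproteinase genes none passed, and Timp2, Timp3 and Timp4 had 0.06, 0.0038 and -0.06. Of the 4 other sphingosine 1-phosphate receptors none passed either. The nearest was S1pr4, a receptor of blood leukocytes, at 1.03 (95% interval 0.22 to 1.84, edgeR adjusted p = 0.345) from means of 0.757 and 1.599 CPM.

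Markers of other cells moved beside the reactive astrocyte genes, several of which such cells express. The 7 microglial markers summed to 387.7 to 437.2 CPM in WT and 633.6 to 808.4 CPM in GFAP-IL6. On the adjusted p 6 of the 7 rose, beside 1.74% of all tested genes. Among them were the calcium-binding protein gene Aif1 (log2 fold change 1.22) and the receptor gene Trem2 (1.18), while P2ry12 had -0.02 (edgeR adjusted p = 0.985). The 7 endothelial markers summed to 98.9 to 106.6 CPM in WT and 123.6 to 202.5 CPM in GFAP-IL6, and Flt1 (0.70) and Ly6c1 (0.82) rose. Endothelial cells are a known source of Vim. The part of microglia and endothelial cells in the values of the reactive astrocyte genes was not tested. Of the pericyte and smooth muscle markers, at 149.2 to 188 CPM in WT and 195.1 to 228.5 CPM in GFAP-IL6, Rgs5 rose (0.52). No marker of border macrophages, fibroblasts, neurons, oligodendrocytes or their precursors, or of dividing cells passed. The fibroblast markers overlapped, at 19.3 to 46.4 CPM in WT and 27.9 to 42.4 CPM in GFAP-IL6. Markers of T and B cells stayed at or below 3.60 CPM in sum and those of neutrophils at or below 6.15 CPM, with Ly6g at 0 in every mouse. None of the 9 astrocyte markers passed, and their median log2 fold change was 0.15.

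**Figure D5:**
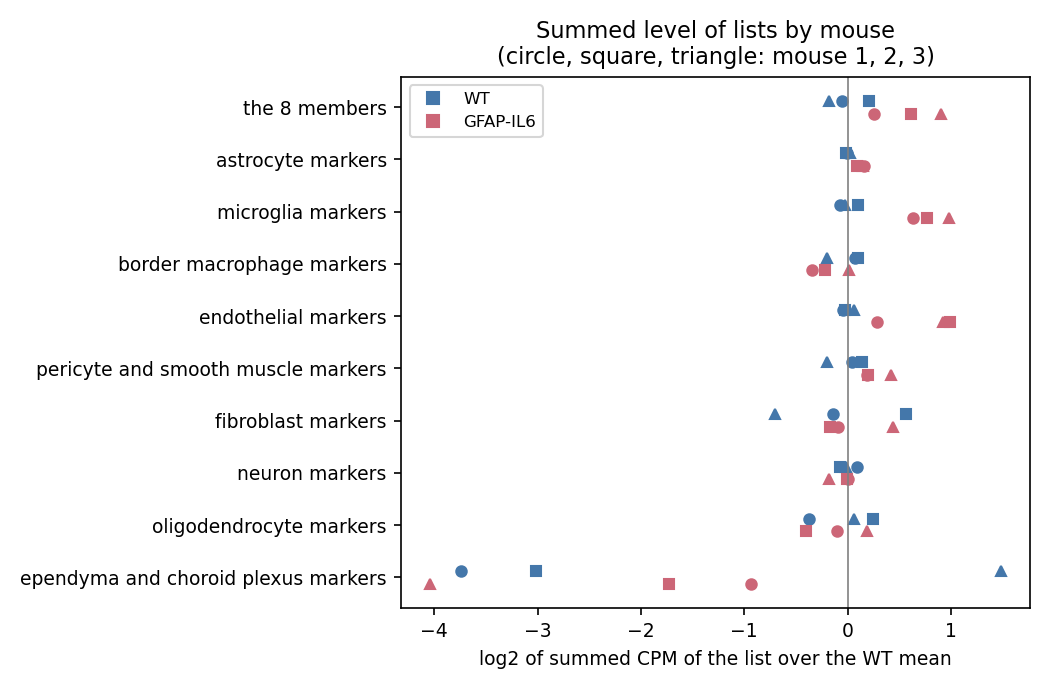
Log2 of the summed CPM of each list over its WT mean, by mouse. The sums of the microglial, endothelial, pericyte and astrocyte markers are higher in each GFAP-IL6 mouse than in each WT mouse (3668 to 3853 against 3394 to 3496 CPM for astrocytes). Most single astrocyte and pericyte markers overlap, and Aldh1l1 is lower in each GFAP-IL6 mouse. Aldoc makes up much of the astrocyte sum (mean 1674 CPM in WT, 1888 CPM in GFAP-IL6). WT mouse 3 stands alone for ependyma and choroid plexus markers (4082 CPM against 88.5 to 759.6 CPM in the other mice).

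The pattern of the 7 tested genes over the 6 mice was summed as the mean of their standardised log2 CPM. Each gene was compared with the mean of the other 6, so that it did not enter its own reference. Aspg had a Pearson's r of 0.894, Hspb1 0.856 and Vim 0.818, while Timp1 had 0.607, Cd44 0.519, S1pr3 0.06 and Nes -0.38. Outside the list, the highest r with the mean of all 7 over the 6 mice were those of Serping1 (0.992), which encodes the C1 inhibitor of complement, Trim41 (0.991), Ccdc34 (0.988), 1010001B22Rik (0.988) and Ddah1 (0.986). Gfap had r = 0.906 and was 197th in this order. All these values rest on the same 6 mice in 2 genotypes, and Trim41 and Ccdc34 differed little between the genotypes in size, with log2 fold changes of 0.10 and 0.14. The named genes are the top of a search among 14621 tested genes. Over 6 mice such a search can give values this high without any relation, and whether they exceed that was not tested.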

How the data were processed

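Frontal cortex RNA of 6 mice in 24 3'Pool-seq libraries was analysed. The authors aligned reads to mm10 with STAR (2.4 in the submitters' processing notes, which list hg19 as build, although all identifiers are of mouse genes) and counted them on genes with featureCounts. They deposited raw counts without normalization. Counts of the 4 libraries of each mouse were summed. Genotypes were compared with edgeR 4.0.16 (TMM, filterByExpr, quasi-likelihood test, R 4.3.3), with Benjamini-Hochberg adjustment over all genes tested. Intervals are approximate, from the fold change and its F value. The paper's methods name DESeq2, which was run as an alternative (1.42.0), with limma 3.58.1, other filters, thresholds and size factors, equal totals, a replicate block and each mouse left out. cDNA amounts and sets were compared with the mouse as a block. CPM correlations used a prior count of 1. Positions are from GENCODE and promoters from RefSeq. The tests were checked on simulated data. No use of molecular identifiers is described, so counted reads can be PCR copies and counts may overstate the number of molecules. The members and lists were chosen with earlier results of these data known. Named were all 8 members, Gfap, Il6, the genes of each list that passed, and the 5 genes most alike in pattern. Genes beyond this rule (Ttr, Synm, Spp1, Stat3, Cryab, Timp2 to Timp4, S1pr4, P2ry12) were chosen after their values were seen.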

Additional observations from a re-analysis of the deposited data

How the results depend on the processing

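In the summed libraries 1 reactive astrocyte gene was a DEG. The number was 0 with equal totals by down-sampling (Aspg, log2 fold change 1.04, edgeR adjusted p = 0.0749) and 0 at an adjusted p under 0.1 with a log2 fold change above 1.5, and it was 2 at an adjusted p under 0.05 with no fold threshold. It ranged from 0 to 2 with each mouse left out, with Hspb1 as the gene added without WT mouse 2 or GFAP-IL6 mouse 1. It was 1 with DESeq2, DESeq2's size factors, no filter, at least 10 counts and limma-voom. Leaving out 1 mouse gave 0 in 2 ng set B, and 0 to 1 in each of the other sets and for the cDNA amounts. In 1 ng set A the number was 0 at the stricter thresholds. In 1 ng set B it was 2 without the filter, 0 with equal totals and 0 at the stricter thresholds. Of all genes, 180 were DEGs, 97 at the stricter thresholds, 245 without the filter and 106 to 201 with each mouse left out, the lowest without GFAP-IL6 mouse 3. Between 2 ng and 1 ng, 4452 genes passed with the mouse as a block, 1696 without it and 2871 with DESeq2, and between the sets 3147, 972 and 2316. Nes turned to a log2 fold change of 0.107 with equal totals and ranged from -0.2913 to 0.0418 with each mouse left out, above 0 without GFAP-IL6 mouse 2. S1pr3 ranged from -0.2165 to 0.0764, above 0 without WT mouse 1 (0.0764) or GFAP-IL6 mouse 2 (0.0382). Same-numbered mice did not deviate together (r of -0.0489, -0.0322 and -0.0335 for numbers 1, 2 and 3), so the numbers were not taken as pairs. With a replicate block the summed libraries gave 1 reactive astrocyte gene and 150 genes in all, and 1 ng set B gave 0. For other changes, the cause was not tested. Low counts limit Timp1, Cd44 and Cd109 most.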
